A study of Mus musculus with 9 samples.

Results

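The genes described here are 35 genes of the lysosome, chosen by name: acid hydrolases, proteins of the lysosomal membrane, cofactors of lipid breakdown, the transcription factor gene Tfeb and the progranulin gene Grn. A gene was taken as measured where a probe set of the array carried its symbol and no other. That held for 34 of the 35 genes, out of 22180 genes in all. The lysosomal beta-galactosidase gene Glb1 had no such probe set and is not analysed here. A single gene, Npc1, had more than 1 probe set, and the brightest stands for it. The cells were mouse embryonic stem cells with a transgene, Afp::GFP, in which the alpha-fetoprotein promoter drives green fluorescent protein. All 3 groups carried this transgene, were grown as embryoid bodies in the same medium, which held serum, and were sorted for the reporter. They differ in the time of collection, 4, 7 or 21 days, with 3 arrays a day. The labels name no parental strain and do not say whether the line is 1 clone.

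The values are log2 signals, so a difference of 1 is a 2-fold difference of array signal. Array medians of all probe sets were 5.88 to 5.98, and correlations across genes were 0.984 to 0.991 between arrays of the same day. As a reference for background, the 95th percentile of 1105 olfactory receptor genes, which are silent in most cells, was 6.06 at days 4 and 7 and 6.03 at day 21. Afp itself lay at 5.72 at day 4, below this reference, and at 10.60 and 13.07 at days 7 and 21, so the transcript that names the sorted cells was not above background on the earliest day. Of 16 markers of visceral endoderm, 12 were above background at day 4 and 16 on both later days. Of the 34 lysosomal genes, 30 were above background at day 4, 32 at day 7 and 31 at day 21. Ctsk and Ctss were below it on every day, Ctsf was below it at day 4, and Tfeb at days 4 and 21.

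Lysosomes are acid organelles in which proteins, glycans and lipids taken up by endocytosis or delivered by autophagy are broken down. Their soluble enzymes are made in the endoplasmic reticulum, carry mannose 6-phosphate and are sorted by receptors for it, while a proton pump of the vacuolar type acidifies the lumen. Visceral endoderm, the outer epithelium of the early mouse embryo and yolk sac, is a strongly endocytic tissue that degrades maternal protein in large apical vacuoles to feed the embryo. TFEB and its relatives of the MiT family bind a palindrome with the core CACGTG near the start of many lysosomal genes.

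Between days 4 and 7, 20 of the 34 lysosomal genes rose and 3 fell, the other 11 not passing the test, with a median log2 change of 0.56. A gene was called where limma's p-value, adjusted over all 22180 genes by the Benjamini-Hochberg method, was under 0.05. Over all genes 6.98% were called higher and 6.47% lower at day 7, with a median change of -0.01. Of the 13188 genes above background on at least 1 day, 11.2% were called higher and 10.3% lower. From day 7 to day 21, 9 lysosomal genes rose, 8 fell and 17 did not pass, with a median of -0.03, where 12.4% of all genes were called higher and 10.7% lower (18.8% and 16.3% of those above background). With each array centred on its own median, which moved the median change of all genes by -0.10 here and by -0.11 between days 4 and 21, these counts became 8 and 13. From day 4 to day 21, 21 rose, 1 fell and 12 did not pass, with a median of 0.53, where 15% of all genes were called higher and 14.1% lower (22.9% and 21.8% of those above background). The 3 comparisons share arrays, so their counts are not independent. Of the 34 genes, the arrays of the 2 days lay apart with the later day higher for 24, 13 and 23. They lay apart with the later day lower for 4, 13 and 2. These counts hold all 23, 17 and 22 called genes, since a call favours arrays that lie apart, and 5, 9 and 3 uncalled genes. Over all genes, arrays of the 2 days lay apart with the later day higher for 14%, 17.1% and 19.4% of genes, and with it lower for 15.9%, 18.4% and 21%.

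**Figure D1:**
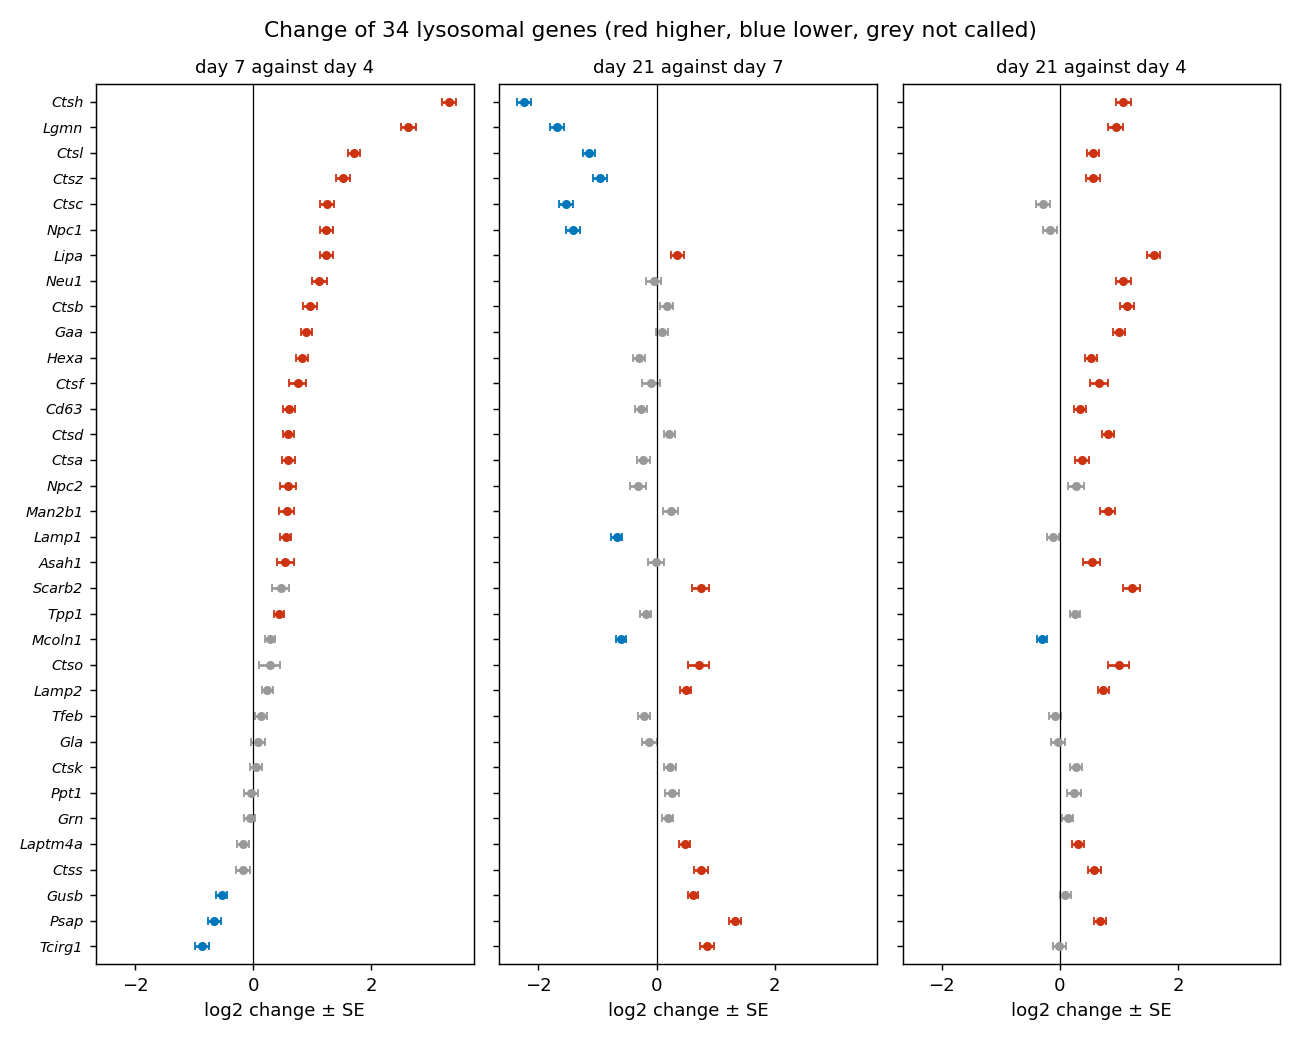
Log2 change (x axis, mean ± SE from limma) of the 34 measured lysosomal genes (y axis, ordered by the change from day 4 to day 7) in the 3 comparisons. Red points were called higher on the later day, blue points lower and grey points were not called; the genes at the top, from Ctsh at 3.32 down to Npc1 at 1.24, lie left of 0 in the middle panel.

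Promoters of 31 of the 35 genes were in the RefSeq table of assembly GRCm38.p6, which gives 250 bases before and 50 after each annotated start; the others are Asah1, Ctsb, Ctsh and Npc1. CACGTG, which reads the same on both strands, stood in a promoter of 10 of the 31 genes (32.3%), against 8.09% of the 27025 genes of the table. The 10 were Ctsa, Ctsd, Ctsf, Ctsl, Gaa, Gla, Glb1, Lamp1, Lgmn and Mcoln1. The longer palindrome TCACGTGA, which contains CACGTG, stood in 4 of the 31 (12.9%: Ctsa, Ctsd, Gla and Mcoln1), against 1.12% of all genes. The 250 bases before the start are shown for 4 genes that hold the palindrome and differed in their calls. Lgmn rose and then fell, Ctsd rose by day 7, and Gla was not called in any comparison. Mcoln1 was called lower after day 7, following an uncalled rise (0.29 ± 0.09). Its net fall from day 4 to day 21 was not called without some of the single arrays. Capitals mark CACGTG or TCACGTGA, and the sequences run 5′ to 3′ on the gene's strand. Lgmn has another annotated start, whose window does not hold CACGTG. A match here is a description of letters, not a bound site.
Lgmn, chr12:102439093-102439342, minus strand: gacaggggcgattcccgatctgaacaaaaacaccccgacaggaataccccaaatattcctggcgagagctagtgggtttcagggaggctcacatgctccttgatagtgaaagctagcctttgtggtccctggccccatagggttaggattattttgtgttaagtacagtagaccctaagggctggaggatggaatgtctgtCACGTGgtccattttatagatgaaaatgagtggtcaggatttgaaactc
Ctsd, chr7:142387828-142388077, minus strand: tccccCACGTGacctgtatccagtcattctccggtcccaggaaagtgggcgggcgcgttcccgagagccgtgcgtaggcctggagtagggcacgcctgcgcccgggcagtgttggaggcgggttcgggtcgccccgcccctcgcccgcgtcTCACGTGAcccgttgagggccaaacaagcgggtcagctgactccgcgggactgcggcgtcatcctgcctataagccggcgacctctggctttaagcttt
Mcoln1, chr8:3500269-3500518, plus strand: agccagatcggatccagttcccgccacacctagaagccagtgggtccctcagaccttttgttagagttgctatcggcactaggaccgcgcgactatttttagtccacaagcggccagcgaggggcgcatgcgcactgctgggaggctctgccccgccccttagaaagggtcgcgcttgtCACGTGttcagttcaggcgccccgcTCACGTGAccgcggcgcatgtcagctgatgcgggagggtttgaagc
Gla, chrX:134601006-134601255, minus strand: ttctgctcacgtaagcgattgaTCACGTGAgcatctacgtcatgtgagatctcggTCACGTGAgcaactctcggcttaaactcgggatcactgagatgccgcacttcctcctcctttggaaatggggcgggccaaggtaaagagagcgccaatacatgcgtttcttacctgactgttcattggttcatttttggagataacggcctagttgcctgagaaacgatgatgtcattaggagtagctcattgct
The core of Lgmn begins 49 bases before the start, those of Mcoln1 71 and 45 bases before it, those of Ctsd 245 and 98, and those of Gla 227 and 194.

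The largest rises by day 7 and the largest falls after it were those of cysteine proteases. Of 10 such genes (9 cathepsins of the papain family and legumain), 7 rose by day 7 and 0 fell, with a median log2 change of 1.11. Of all genes, 6.98% were called higher and 6.47% lower. From day 7 to day 21, 2 of the 10 rose and 5 fell (median -0.53), where 12.4% and 10.7% of all genes did. Ctsk and Ctss were below background on every day, and Ctss was among the 2 that rose. Ctsh (probe set 17520233) encodes cathepsin H, an aminopeptidase. Its log2 signal was 7.75, 7.86 and 8.21 on the 3 arrays of day 4, 11.39, 11.19 and 11.18 at day 7, and 9.02, 9.02 and 8.99 at day 21. The 3 days formed separate groups, with day 7 highest and day 21 between the others. The rise by day 7 was 9.96-fold (log2 change 3.32 ± 0.13, SE; limma adjusted p = 1.14e-07), the fall from there to day 21 was -2.24 ± 0.13, and the net change from day 4 was 1.07 ± 0.13.

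Lgmn (17283445), legumain, cuts after asparagine and processes several cathepsins to their mature forms. Its signal was 9.14, 8.98 and 9.44 at day 4, 11.86, 11.73 and 11.84 at day 7, and 10.18, 10.16 and 10.04 at day 21. The order of the days was that of Ctsh. Lgmn rose 6.17-fold by day 7 (2.63 ± 0.12; limma adjusted p = 4.15e-07), changed by -1.69 ± 0.12 by day 21 and remained 0.94 ± 0.12 above day 4.

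Ctsl (17293706), the endopeptidase cathepsin L, measured 9.14, 9.18 and 9.38 at day 4, 11.04, 10.91 and 10.86 at day 7, and 9.85, 9.74 and 9.76 at day 21. It rose by 1.70 ± 0.10 and then changed by -1.15 ± 0.10. For Ctsz (17395155), a carboxypeptidase also called cathepsin X, the signal was 8.89, 8.89 and 9.13 at day 4, 10.50, 10.35 and 10.62 at day 7, and 9.39, 9.50 and 9.69 at day 21. Both genes were highest at day 7 on every array, and both were above day 4 at day 21, Ctsl by 0.55 ± 0.10 and Ctsz by 0.56 ± 0.12. Ctsz rose by 1.52 ± 0.12 by day 7 and changed by -0.96 ± 0.12 afterwards.

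Ctsc (17480018) encodes dipeptidyl peptidase I, which activates serine proteases of granules in blood cells. Its signal was 8.75, 8.92 and 9.0 at day 4, 10.22, 10.18 and 10.01 at day 7, and 8.72, 8.69 and 8.40 at day 21. It rose by 1.25 ± 0.12 and fell by 1.53 on the log2 scale, and its day 21 arrays, though all below those of day 4, did not pass the test against them (-0.28 ± 0.12; limma adjusted p = 0.114). With each array centred on its median this last change was called, at -0.39.

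Not all cathepsins were lower at day 21 than at day 7. Ctsb (17301213), the abundant protease cathepsin B, measured 9.70, 9.72 and 9.91 at day 4, 10.83, 10.54 and 10.85 at day 7, and 10.95, 10.84 and 10.95 at day 21. Its arrays of days 7 and 21 overlapped, and the change between them was 0.17 ± 0.11 (limma adjusted p = 0.344), while the rise from day 4 to day 21 was 2.2-fold. Ctsf rose by 0.75 ± 0.15 by day 7 from a day 4 mean below background, and its later change of -0.09 ± 0.15 did not pass.

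Ctso (17398430), a little-studied cathepsin, measured 7.09, 6.56 and 6.84 at day 4, 7.17, 7.24 and 6.92 at day 7, and 7.88, 8.09 and 7.50 at day 21. Days 4 and 7 overlapped, and the day 21 arrays were all higher, by 0.71 ± 0.18 against day 7. That call was lost without day 7 replicate 3 (0.62, adjusted p = 0.0571) or without day 21 replicate 2 (0.58, adjusted p = 0.0553). Ctss (17400375), cathepsin S of antigen-presenting cells, measured 5.38, 5.37 and 5.28 at day 4, 4.96, 5.21 and 5.34 at day 7, and 5.80, 5.97 and 6.0 at day 21. Its rise of 0.76 ± 0.12 by day 21 passed the test, but all 3 means lay below background. Ctsk, the collagen-degrading protease of osteoclasts, also lay below background, at 4.77 ± 0.13 (SD, n = 3), 4.82 ± 0.04 and 5.04 ± 0.07, and was not called.

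The other 3 peptidases were the serine carboxypeptidase cathepsin A (Ctsa), the aspartic protease cathepsin D (Ctsd) and tripeptidyl peptidase (Tpp1). All 3 rose by day 7, by 0.60 ± 0.12, 0.60 ± 0.10 and 0.43 ± 0.09, and none was called from day 7 to day 21, where their changes were -0.22 ± 0.12, 0.21 ± 0.10 and -0.19 ± 0.09. From day 4 to day 21 Ctsd rose by 0.81 ± 0.10 and Ctsa by 0.38 ± 0.12. The Ctsa call was lost in each of 4 cases, without day 4 replicate 1 or any 1 of the day 21 arrays (adjusted p 0.0575 to 0.109, log2 change 0.26 to 0.40). It was also lost with centred arrays (0.27, adjusted p = 0.115) and with only the arrays of the 2 days (adjusted p = 0.0562). Tpp1, at 0.25 ± 0.09, had a limma adjusted p of 0.0563. It was called higher with quantile normalization (0.28, adjusted p = 0.0288) and over only the genes above background (adjusted p = 0.0305). A variance trend and robust moderation also gave a call (adjusted p = 0.021). With arrays centred on their medians, its change from day 7 to day 21 was called lower.

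Of 6 glycosidases, which cut sugars from glycans and glycolipids, 4 rose by day 7, 1 fell and 1 did not pass, where 6.98% of all genes were called higher and 6.47% lower. Neu1 (17336811), the lysosomal sialidase, measured 7.48, 7.11 and 7.47 at day 4, 8.52, 8.46 and 8.44 at day 7, and 8.23, 8.47 and 8.57 at day 21. The later days overlapped each other and lay above every day 4 array. Neu1 rose by 1.12 ± 0.13 by day 7 and was 1.07 ± 0.13 above day 4 at day 21. Gaa, the acid alpha-glucosidase of glycogen breakdown, rose by 0.90 ± 0.10, Hexa, the alpha subunit of beta-hexosaminidase A, by 0.83 ± 0.10, and Man2b1, an alpha-mannosidase, by 0.57 ± 0.12. None of these 4 was called from day 7 to day 21, where their changes ran from -0.30 ± 0.10 (Hexa, adjusted p = 0.0549) to 0.24 ± 0.12 (Man2b1). Hexa was called lower in that interval with arrays centred on their median (-0.40, adjusted p = 0.0185), over only the genes above background (adjusted p = 0.0285) and with a variance trend and robust moderation (adjusted p = 0.0172). All 4 were called higher at day 21 than at day 4.

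Gusb (17453160), beta-glucuronidase, went the other way. It measured 9.25, 9.27 and 9.39 at day 4, 8.72, 8.87 and 8.74 at day 7, and 9.40, 9.39 and 9.40 at day 21. The day 7 arrays were the lowest, without overlap. The change by day 7 was -0.53 ± 0.09 (limma adjusted p = 0.00267), and the signal rose by 0.62 ± 0.09 afterwards. Gla, alpha-galactosidase A, was not called in any comparison, with changes of 0.08 ± 0.12, -0.12 ± 0.12 and -0.04 ± 0.12, each with overlapping arrays.

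Genes of lipid breakdown and cholesterol export divided. Npc1 and Npc2 encode the membrane and the soluble protein that pass cholesterol out of the lysosome. Npc1 (17352731) measured 8.55, 8.56 and 8.54 at day 4, 9.86, 9.85 and 9.66 at day 7, and 8.59, 8.33 and 8.21 at day 21. Day 7 stood above the others, which overlapped, with a rise of 1.24 ± 0.12 and a later change of -1.41 ± 0.12. A dimmer probe set of Npc1, with a mean of 5.12 over the arrays, changed by 0.50 (adjusted p = 0.0723) and -0.55 (adjusted p = 0.0322). Npc2 rose by 0.59 ± 0.14 by day 7, and its change of -0.32 ± 0.14 afterwards did not pass. The call of Npc2 was lost without day 4 replicate 1 or 2, or day 7 replicate 1 or 3 (adjusted p 0.0599 to 0.0682, log2 change 0.51 to 0.57). With arrays centred on their medians the later change was called lower.

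Lipa (17364114), the acid lipase that frees cholesterol and fatty acids from lipoprotein lipids, measured 7.72, 7.60 and 7.86 at day 4, 9.08, 8.87 and 8.93 at day 7, and 9.26, 9.46 and 9.21 at day 21. Its days formed 3 separate groups in the order of time. It rose by 1.24 ± 0.11 by day 7 and by 1.59 ± 0.11 over the whole course, a 3.00-fold rise with a limma adjusted p of 2.87e-06. The step from day 7 to day 21 (0.35 ± 0.11, adjusted p = 0.0472) was not called without day 4 replicate 1 or 2, day 7 replicate 2 or 3, or day 21 replicate 1 or 2 (adjusted p 0.0535 to 0.156, log2 change 0.28 to 0.37). It was not called either with centred arrays (0.25, adjusted p = 0.142), with only the arrays of the 2 days (adjusted p = 0.0687) or with the replicate number as a block (adjusted p = 0.0789).

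Psap (17233629) encodes prosaposin, the precursor of the saposins that present sphingolipids to their hydrolases. It measured 10.76, 10.90 and 10.95 at day 4, 10.16, 10.23 and 10.25 at day 7, and 11.55, 11.66 and 11.40 at day 21. Day 7 was lowest and day 21 highest, with no overlap. Psap changed by -0.65 ± 0.10 by day 7 and then rose 2.51-fold (1.33 ± 0.10; limma adjusted p = 6.94e-06), the largest rise of the 34 genes in that interval. Asah1, acid ceramidase, rose by 0.54 ± 0.14 by day 7 and was 0.54 ± 0.14 above day 4 at day 21. Its call at day 7 was lost without day 4 replicate 1 or 2 or any 1 of the day 7 arrays (adjusted p 0.0564 to 0.0976, log2 change 0.49 to 0.58). The call at day 21 against day 4 was lost without day 4 replicate 1 or 2 (adjusted p 0.0564 and 0.0537, log2 change 0.49 and 0.51). Ppt1, a thioesterase that removes fatty acids from proteins, was not called (-0.03 ± 0.12, 0.27 ± 0.12 and 0.23 ± 0.12), but passed without day 21 replicate 3 in both comparisons with day 21 (0.37 and 0.33, adjusted p 0.0375 and 0.0465).

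**Figure D2:**
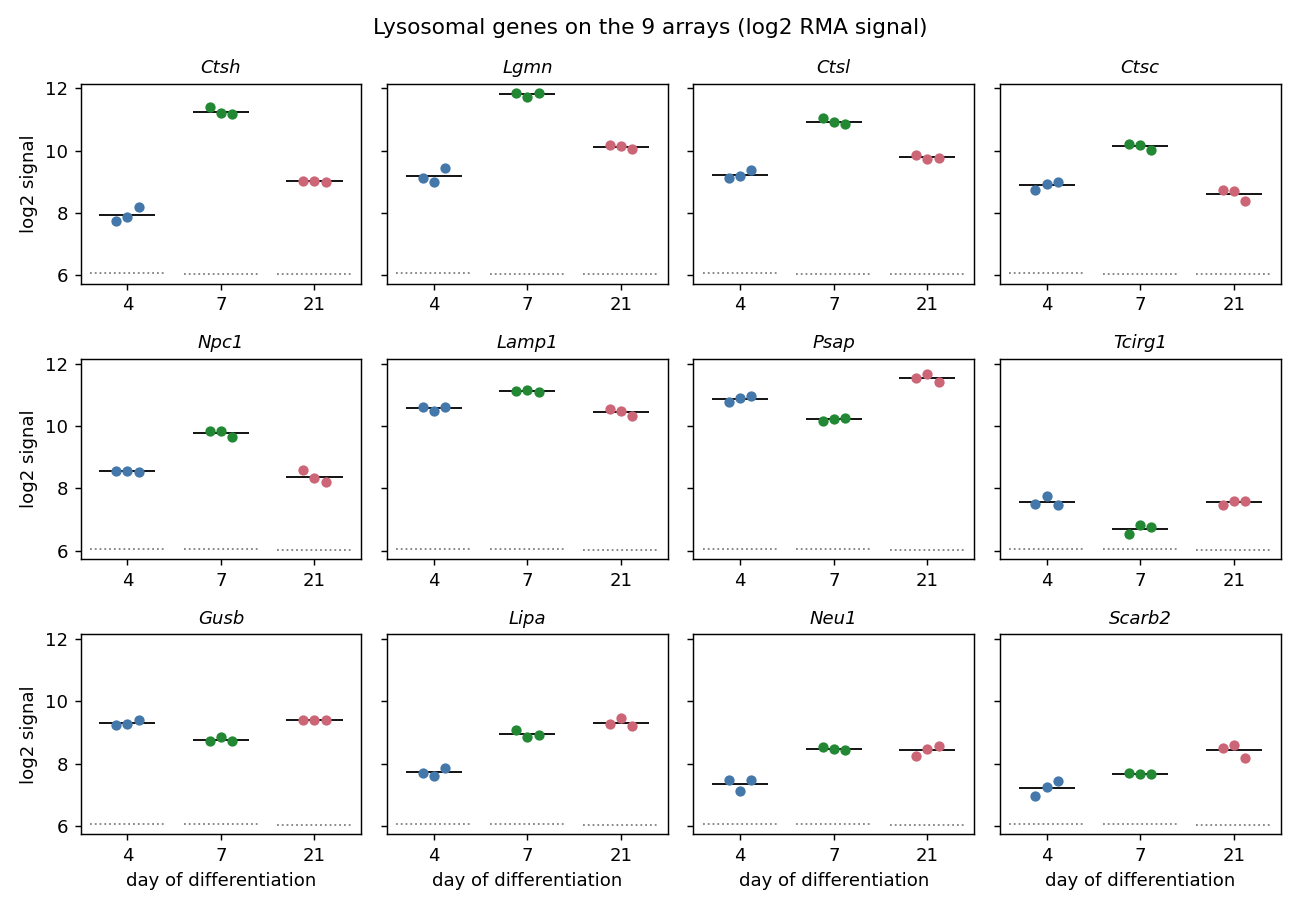
Log2 RMA signal (y axis) of 12 lysosomal genes on the 9 arrays by day of differentiation (x axis); points are single arrays, black lines the mean of a day and dotted grey lines the background reference of that day. Ctsh, Lgmn, Ctsl, Ctsc, Npc1 and Lamp1 are highest at day 7, Psap, Tcirg1 and Gusb are lowest at day 7, and Lipa, Neu1 and Scarb2 are higher at day 21 than at day 4.

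The 7 membrane genes took separate courses. LAMP1 and LAMP2 are the abundant glycoproteins that line the inner face of the lysosomal membrane. Lamp1 (17499279) measured 10.60, 10.49 and 10.61 at day 4, 11.11, 11.16 and 11.09 at day 7, and 10.54, 10.48 and 10.33 at day 21. Lamp2 (17541173) measured 10.04, 10.03 and 9.95 at day 4, 10.21, 10.31 and 10.21 at day 7, and 10.82, 10.73 and 10.66 at day 21. Lamp1 was highest at day 7 while Lamp2 was highest at day 21. From day 7 to day 21 Lamp1 changed by -0.67 ± 0.09 (limma adjusted p = 0.000456) and Lamp2 by 0.49 ± 0.09 (adjusted p = 0.00275). Against day 4, Lamp1 was 0.55 ± 0.09 higher at day 7 and not called at day 21 (-0.12 ± 0.09), whereas Lamp2 was not called at day 7 (0.24 ± 0.09) and 0.73 ± 0.09 higher at day 21. All day 7 arrays of Lamp2 lay above those of day 4, and that change was called with a variance trend and robust moderation (limma adjusted p = 0.0417).

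Scarb2 (17449749) encodes LIMP-2, the receptor that carries glucocerebrosidase to lysosomes. It measured 6.97, 7.24 and 7.44 at day 4, 7.71, 7.66 and 7.69 at day 7, and 8.49, 8.61 and 8.19 at day 21. The days did not overlap and followed the order of time, and the rise over the whole course was 1.21 ± 0.14 (2.32-fold). Its change by day 7, 0.47 ± 0.14, just missed the test (adjusted p = 0.057) and passed without day 4 replicate 3 (0.57, adjusted p = 0.038) or without day 21 replicate 3 (0.47, adjusted p = 0.033). It also passed with quantile normalization (adjusted p = 0.0448), over only the genes above background (adjusted p = 0.0261) and with a variance trend and robust moderation (adjusted p = 0.0385).

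Tcirg1 (17361008) encodes the a3 subunit of the vacuolar proton pump, best known from osteoclasts. It measured 7.48, 7.75 and 7.47 at day 4, 6.53, 6.81 and 6.75 at day 7, and 7.47, 7.60 and 7.60 at day 21. Day 7 lay below both other days, which overlapped, with changes of -0.87 ± 0.12 and then 0.86 ± 0.12. It had the largest fall of the 34 genes by day 7.

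Mcoln1 (17498607) encodes mucolipin, the calcium channel of the lysosomal membrane. It measured 9.76, 9.75 and 9.77 at day 4, 9.98, 10.02 and 10.15 at day 7, and 9.47, 9.42 and 9.47 at day 21. The 3 days lay apart, with day 21 lowest. The change by day 7, 0.29 ± 0.09, had a limma adjusted p of 0.0565. It was called over only the genes above background (adjusted p = 0.0278) and with a variance trend and robust moderation (adjusted p = 0.0163). The change from day 7 to day 21, -0.60 ± 0.09, passed. Mcoln1 alone was called lower at day 21 than at day 4 (-0.31 ± 0.09, adjusted p = 0.0232). That call was lost without any 1 of the day 4 arrays or without day 21 replicate 2 (adjusted p 0.0567 to 0.0683, log2 change -0.31 to -0.29), which leaves 0 of the 34 genes lower, and with quantile normalization (-0.26, adjusted p = 0.0628).

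Cd63, a tetraspanin of late endosomes, rose by 0.60 ± 0.10 by day 7 and was 0.34 ± 0.10 above day 4 at day 21. The latter call was lost without day 4 replicate 1 (0.29, adjusted p = 0.0826), without day 21 replicate 1 (0.30, adjusted p = 0.0724) and with centred arrays (0.23, adjusted p = 0.113). From day 7 to day 21 Cd63 changed by -0.26 ± 0.10 without overlap, which did not pass (limma adjusted p = 0.0809). That change was called lower with centred arrays (-0.36, adjusted p = 0.0249) and over only the genes above background (adjusted p = 0.0446). It was also called with a variance trend and robust moderation (adjusted p = 0.0172). Laptm4a, a small membrane protein of late endosomes, rose by 0.47 ± 0.10 from day 7 to day 21. Its net rise of 0.30 ± 0.10 was called with all 9 arrays and without day 21 replicate 2, and lost without any 1 of the other 8 arrays (adjusted p 0.0542 to 0.143, log2 change 0.26 to 0.32). It was also lost with centred arrays (0.19, adjusted p = 0.171), with only the arrays of the 2 days (adjusted p = 0.0707) and with the replicate number as a block (adjusted p = 0.0566).

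Tfeb (probe set 17338328) measured 6.04, 6.02 and 6.02 at day 4, 6.23, 6.07 and 6.18 at day 7, and 6.02, 5.81 and 6.02 at day 21. Its arrays lay within a narrow range around the background reference, and its changes of 0.13 ± 0.10, -0.21 ± 0.10 and -0.08 ± 0.10 did not pass. With arrays centred on their medians the change from day 7 to day 21 was called, at -0.31 (adjusted p = 0.0415). Grn, whose product progranulin is cut into granulins in lysosomes, was not called either, with means of 10.54 ± 0.11 (SD, n = 3), 10.48 ± 0.06 and 10.67 ± 0.03. With quantile normalization its change from day 7 to day 21 was called higher (0.27, limma adjusted p = 0.0428). Of other MiT genes in the list of regulators, Tfe3 (0.29 ± 0.11) and Mitf (-0.06 ± 0.11) were not called by day 7, nor later.

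Tfec (17464950), the remaining MiT gene, changed most. It measured 4.73, 5.59 and 5.79 at day 4, 8.51, 8.42 and 8.37 at day 7, and 7.22, 7.25 and 7.38 at day 21. All day 4 arrays lay below background and all later arrays above it. Tfec rose by 3.06 ± 0.22 by day 7 (limma adjusted p = 7.85e-06), set against that floor, and changed by -1.15 ± 0.22 by day 21. Of the 22 regulators of lysosomal genes and of the mTORC1 platform, 5 (22.7%) rose and 0 fell by day 7, with a median of 0.11. Of all genes, 6.98% and 6.47% did. From day 7 to day 21, 1 (4.5%) rose and 4 (18.2%) fell, where 12.4% and 10.7% of all genes did. Ppargc1a, a coactivator of mitochondrial genes, rose by 3.34 ± 0.21 from below background, and Fnip2, a partner of folliculin, changed by -0.69 ± 0.12. From day 4 to day 21, 2 (9.1%) were higher and 3 (13.6%) lower, against 15% and 14.1% of all genes.

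Other genes of the organelle were read from lists by role. By limma, 6.98% of all genes were called higher and 6.47% lower by day 7. From day 7 to day 21 these shares were 12.4% and 10.7%, and from day 4 to day 21 they were 15% and 14.1%. Of 30 other lysosomal hydrolases and activators, 15 rose and 2 fell by day 7 (median 0.38), 9 rose and 5 fell from day 7 to day 21 (median 0.08), and 17 rose and 3 fell from day 4 to day 21 (median 0.44). By day 7 the largest rises were those of Ifi30, a thiol reductase (1.64 ± 0.12), Manba, beta-mannosidase (1.21 ± 0.16), and Scpep1, a serine carboxypeptidase (0.99 ± 0.10). Arsb, arylsulfatase B, changed by -0.59 ± 0.12 by day 7 and rose by 1.36 ± 0.12 afterwards. Ggh, gamma-glutamyl hydrolase of folates, rose by 1.43 ± 0.11 after day 7, while Dpp7, a dipeptidyl peptidase, changed by -1.08 ± 0.11. Over the whole course Aga, which cuts the link of glycans to asparagine, rose by 1.92 ± 0.13.

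Of 21 measured genes of the vacuolar proton pump, a count that leaves out Tcirg1 because it is one of the 34, 10 (47.6%) rose and 0 fell by day 7 (median 0.36). Of all genes, 6.98% and 6.47% did. From day 7 to day 21, 1 (4.8%) rose and 7 (33.3%) fell (median -0.23), where 12.4% and 10.7% of all genes did. Atp6v0a1, which encodes the a1 subunit, rose by 1.07 ± 0.12 and then changed by -0.79 ± 0.12, opposite in sign to Tcirg1 in both intervals. Atp6v0a4, the a4 subunit of renal epithelium, rose by 0.71 ± 0.13 after day 7, from below background. From day 4 to day 21, 3 of the 21 (14.3%) were higher and 4 (19.0%) lower (median 0.09), near the 15% and 14.1% of all genes.

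Of 32 other membrane proteins, 7 (21.9%) rose and 3 (9.4%) fell by day 7 (median 0.19), where 6.98% and 6.47% of all genes did. From day 7 to day 21, 4 (12.5%) rose, near the 12.4% of all genes, and 12 (37.5%) fell, against 10.7% (median -0.14). Tpcn1, a two-pore cation channel, measured 8.54, 8.67 and 8.73 at day 4, 10.59, 10.45 and 10.44 at day 7, and 9.54, 9.07 and 9.20 at day 21. Slc38a9, the arginine sensor upstream of mTORC1, measured 7.64, 7.48 and 7.53, then 8.81, 8.80 and 8.73, then 7.43, 7.42 and 7.10. Both were highest at day 7, with rises of 1.85 ± 0.13 and 1.23 ± 0.11 and later changes of -1.22 ± 0.13 and -1.46 ± 0.11. From day 4 to day 21, 6 of the 32 (18.8%) were higher and 5 (15.6%) lower, near the shares of all genes, 15% and 14.1%. Laptm5, a lysosomal membrane protein of leukocytes that is named here after its values were seen, was below background at days 4 and 7 and rose by 1.52 ± 0.29 from day 7 to day 21, to 7.42, 6.42 and 7.49.

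Of 25 genes of sorting and delivery, 6 (24%) rose and 0 fell by day 7 (median 0.14), where 6.98% and 6.47% of all genes did. From day 7 to day 21, 2 (8%) rose and 5 (20%) fell (median -0.18), where 12.4% and 10.7% of all genes did. From day 4 to day 21, 4 (16%) were higher and 3 (12%) lower, near the 15% and 14.1% of all genes. Gnptab, which encodes the enzyme that starts the mannose 6-phosphate tag, rose by 0.67 ± 0.14 and then changed by -0.82 ± 0.14. Sorl1, a sorting receptor, rose in both intervals, by 0.84 ± 0.13 and 0.71 ± 0.13. Among 6 cystatins, inhibitors of cysteine cathepsins, 1 (16.7%) was called higher by day 7, the broadly expressed Cst3 (0.53 ± 0.13). By limma 0 were called in either comparison with day 21, where 2 and 1 had an unadjusted p under 0.05. Only 2 of the 6 were above background on any day, which limits what the uncalled changes show.

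**Figure D3:**
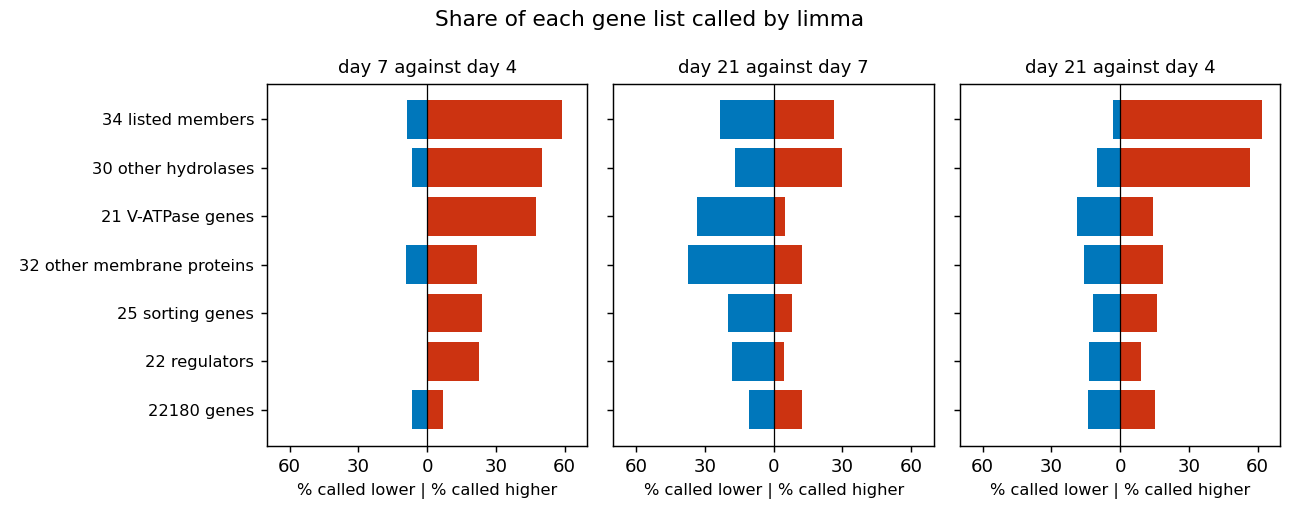
Share of each gene list called by limma (x axis, percent; red bars to the right called higher on the later day, blue bars to the left called lower) in the 3 comparisons, with all 22180 genes at the bottom. By day 7, 58.8% of the listed genes, 50% of the other hydrolases and 47.6% of the proton pump genes were called higher and stand beside 6.98% of all genes called higher; the lists were not tested as sets.

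Markers of cell types moved on the same arrays. By limma, 6.98% of all genes were called higher and 6.47% lower by day 7. From day 7 to day 21 these shares were 12.4% and 10.7%. Of 16 visceral endoderm markers, 14 rose and 0 fell by day 7, and 1 rose and 13 fell from day 7 to day 21. The marker that rose after day 7 was Afp (2.47 ± 0.11), whose promoter drives the sorted reporter. The mean signal per array over the 16 markers lay between 6.97 and 7.07 at day 4, 9.85 and 9.91 at day 7, and 8.85 and 8.90 at day 21. The mean over the 34 lysosomal genes lay between 8.66 and 8.81, 9.32 and 9.35, and 9.17 and 9.23 on the same days. Of 11 fibroblast and mesenchyme markers, 0 rose and 3 fell by day 7, and 10 rose and 0 fell afterwards, with array means of 7.04 to 7.11, 6.51 to 6.66 and 8.78 to 9.60. Of 10 hepatoblast markers, 5 rose and 0 fell by day 7, and 7 rose and 1 fell from day 7 to day 21. The one that fell was Ttr (-0.82 ± 0.14), which also stands among the 16 visceral endoderm markers. The part of these cell types in the lysosomal changes was not tested. In such bulk samples, fewer cells of a type and less RNA per cell cannot be told apart.

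Macrophages are rich in lysosomes, so their markers were read as well. Of 14 macrophage markers, 1 (7.1%) rose and 0 fell by day 7, near the 6.98% of all genes called higher, where 6.47% were called lower. The gene that rose was Cd68, which also stands among the 32 other membrane proteins. From day 7 to day 21, 4 (28.6%) rose and 0 fell, where 12.4% and 10.7% of all genes did. Array means over the 14 markers were 5.48 to 5.62, 5.59 to 5.71 and 6.12 to 6.19. At days 4 and 7 only 2 of them, Cx3cr1 and the lysosomal glycoprotein gene Cd68, were above background, joined at day 21 by Csf1r and Cd14. The 4 that rose after day 7 were Csf1r, Cd14, Lyz2 and Mpeg1. Csf1r rose by 1.51 ± 0.11 (limma adjusted p = 3.27e-06) to a day 21 mean of 7.42. Cd14 rose by 3.48 ± 0.21 (limma adjusted p = 1.01e-06) to a day 21 mean of 8.82. Lyz2 changed by 1.07 ± 0.17 (adjusted p = 0.00108) and Mpeg1 by 1.18 ± 0.14 (adjusted p = 0.000128), and the day 21 means of both were below background. Ptprc, Adgre1, Tyrobp, Itgam and Spi1, which define leukocytes or macrophages, were below background on all 3 days.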

How the data were processed

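RNA from sorted cells was labelled with an Affymetrix kit for picogram inputs and hybridised to arrays, 3 for each of 3 days, per the labels' protocols. Per the submitters' processing notes, the authors used Expression Console from Affymetrix with RMA to obtain the deposited log2 signal of each probe set. Tool versions and the genome build of the annotation: not given in the sources used here. Because RMA gives arrays a common distribution, it largely removes any change shared by all transcripts.

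Of 34365 probe sets, 23521 carried 1 gene symbol in GEO's platform annotation, 1814 several and 9030 none here. The brightest single-symbol probe set stood for each of 22180 genes, and no pair of arrays was identical. A linear model with 3 day means was fitted by limma 3.58.1 (lmFit, eBayes; R 4.3.3) on the 9 arrays; p-values are two-sided and adjusted by Benjamini-Hochberg over all genes, called under 0.05. SE comes from this model and SD from the 3 arrays of a day. Whether these arrays come from separate cultures is not stated in the labels, and the spread behind the p-values may be technical. The number of arrays limits the precision. The procedure was tested on simulated data with independent noise on each array and far fewer changed genes than were called here. Such a simulation cannot show whether the spread between these arrays is technical.

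The lysosomal genes and the lists of other lysosome genes and cell type markers were chosen with earlier results of these data known, so no count is independent support. Values on every array are given for the 5 largest called rises and falls per comparison and for Lamp1, Lamp2, Tfeb and Mcoln1; other array values were chosen after they were seen, as were the 4 promoters. From each other list, up to 3 called genes a direction with the largest change are named; Tfe3, Mitf and genes followed across comparisons are exceptions where they fall outside that rule. Alternatives varied the probe set, array scaling, background filter, variance model, arrays in the fit and replicate block, and left out each array.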

Additional observations from a re-analysis of the deposited data

How the results depend on the processing

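The counts by comparison kept within 1.5 times their value under 7 other settings of the analysis, with these exceptions. With arrays centred on their medians, 13 genes in place of 8 were lower at day 21 than at day 7, and 2 in place of 1 lower than at day 4; the medians became -0.13 and 0.42. With quantile normalization 0 genes were lower at day 21 than at day 4. Leaving out each array gave 18 to 21 higher and 3 lower at day 7 against day 4 (median 0.49 to 0.62), 7 to 10 higher and 8 lower at day 21 against day 7 (median -0.065 to 0.044, so its sign is not settled), and 17 to 20 higher and 0 to 1 lower at day 21 against day 4 (median 0.46 to 0.56). Of 62 called changes, 9 were lost under at least 1 of the 16 settings, and 13 of 40 others were called under at least 1. No called change turned its sign. Changes that were not called and turned sign were those of Gusb (day 21 against day 4, -0.022) and Gaa (day 21 against day 7, -0.0100) with centred arrays and Asah1 (day 21 against day 7) with quantile normalization (0.042). Without single arrays, changes from day 7 to day 21 ran from -0.16 to 0.12 for Asah1 and -0.12 to 0.045 for Neu1. By day 7 they ran from -0.024 to 0.098 for Ctsk, -0.0065 to 0.13 for Gla and -0.098 to 0.0023 for Grn, and from day 4 to day 21 from -0.11 to 0.053 for Gla and -0.057 to 0.081 for Tcirg1. The cause was not tested.

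Replicate numbers are shared between days in the labels, but nothing says that they pair samples. Deviations of same-numbered arrays correlated at -0.05 to 0.26, and 6 of 9 arrays correlated best with an array of their own number. With the number as a block, 20 genes were higher and 3 lower at day 7 against day 4, 8 and 8 at day 21 against day 7, and 20 and 1 at day 21 against day 4. Signal near background limits Ctsk, Ctss, Tfeb and, at day 4, Ctsf.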

Other observations

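Markers of pluripotent and epiblast cells and of epithelia were read on the same arrays. By limma, 6.98% of all genes were called higher and 6.47% lower by day 7. From day 7 to day 21 these shares were 12.4% and 10.7%, and from day 4 to day 21 they were 15% and 14.1%. Of 8 pluripotency and epiblast markers, 1 rose and 5 fell by day 7, 0 rose and 7 fell from day 7 to day 21, and all 8 were lower at day 21 than at day 4. Of 6 epithelial markers, 2 rose and 0 fell by day 7, 3 rose and 1 fell afterwards, and all 6 were higher at day 21 than at day 4.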
